A study of Homo sapiens with 4 samples.

Results

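The DNA replication and G1/S gene set comprises 45 genes, taken by symbol from the 23228 genes listed in the files, by a rule that holds symbols and no measured value. All 45 were listed and all had a mean of at least 1 CPM (counts per 1e+06 gene reads, scaled as described under processing) in every comparison. Their transcripts were read from total RNA of A673 cells, a long-established Ewing sarcoma line driven by the EWS-FLI1 fusion. The 4 libraries are 4 groups of 1 library, all A673 cells collected 48 h after transfection with Lipofectamine RNAiMAX. They form pairs of a control and a knockdown. The SMPD1 pair is named here control_SMPD1 and siSMPD1 (scrambled siRNA, and siRNA against SMPD1, the gene of acid sphingomyelinase). The GPR64 pair is control_GPR64 and siGPR64 (scrambled siRNA, and siRNA against GPR64, now ADGRG2, an adhesion G protein-coupled receptor). With 1 library per group, no ratio below has a replicate check, and each interval is a 95% exact interval that covers counting error only. A gene is called higher or lower where the ratio of 2 libraries is at least 1.5-fold and this interval excludes equality.

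Replication of the genome starts at origins where the MCM2 to MCM7 helicase is loaded in G1 by the origin recognition complex, CDC6 and CDT1. At the G1/S transition CDC45 and the GINS complex switch the helicase on, and DNA polymerases, the sliding clamp and its loader, and enzymes of nucleotide supply then copy the strands. Many of these genes are transcribed by E2F factors once cyclin-dependent kinases have inactivated the RB family, and Ewing sarcoma cells are known for replication stress.

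The libraries differed in depth and in more than the siRNA target. Gene counts summed to 19614913 in control_SMPD1 and 18849264 in siSMPD1, and to 2882854 in control_GPR64 and 2534861 in siGPR64. SMPD1 stood at 414.3, 91.7, 52.8 and 231.9 CPM in control_SMPD1, siSMPD1, control_GPR64 and siGPR64, so it was lower in control_GPR64 than in the SMPD1 knockdown. GPR64 stood at 387.7, 538.9, 108.6 and 50.1 CPM in the same order. Of 6 Ewing sarcoma markers, 5 were above 1 CPM in every library, FLI1 between 66.5 and 85 CPM, while CD99 was listed at 0 in all 4. Reads not uniquely aligned were not counted, so the CD99 value alone does not show that its transcript was absent. Muscle is the tissue in the labels, yet the muscle regulators MYOD1, MYOG, MYF5 and MYF6 were listed at 0 in every library. The 12 muscle markers summed to 14.1, 18.3, 61.0 and 46.2 CPM, 5 epithelial markers to 180, 147, 85.3 and 169 CPM and 6 immune markers to 10.6, 13.4, 3.08 and 7.44 CPM, in the same order, and their part in the results below was not tested.

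In the SMPD1 knockdown the replication genes stayed close to their paired control. In the GPR64 knockdown a subset stood above its paired control, the library with the lowest sum over the members. In siSMPD1 no member was higher by 1.5-fold (7.26% of 12749 measured genes were) and 1 was lower (4.78% of genes), POLA1. None reached 2-fold in either direction (2.49% and 1.11% of genes). The counting interval lay above equality for 12 members (28.1% of genes) and below it for 16 (28.8%). In siGPR64 9 of 45 members, or 20%, were higher (13.2% of 12830 genes) and 2 were lower (11.3%). The higher members were MCM4, POLE2, POLD3, DSCC1, FEN1, UNG, CLSPN, E2F1 and E2F8, and the lower ones POLA1 and SLBP. At 2-fold 3 of 45 were higher, UNG, E2F8 and E2F1, a share near the 6.56% of all genes. None was lower (5.18%). The interval lay above equality for 22 members (22.2% of genes) and below it for 7 (20.2%). The median log2 ratio of members was -0.01 in the SMPD1 pair and 0.19 in the GPR64 pair, beside 0.0 and 0.01 over all genes. Summed over the 45 members, transcripts came to 7461 CPM in control_SMPD1 and 7276 in siSMPD1, and to 6055 in control_GPR64 and 7014 in siGPR64. The control of the GPR64 pair was the lowest of the 4 libraries on this sum, and the other libraries lay close together. In RNA from whole cultures, fewer cells in S phase and less of these transcripts per cell cannot be told apart.

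**Figure D1:**
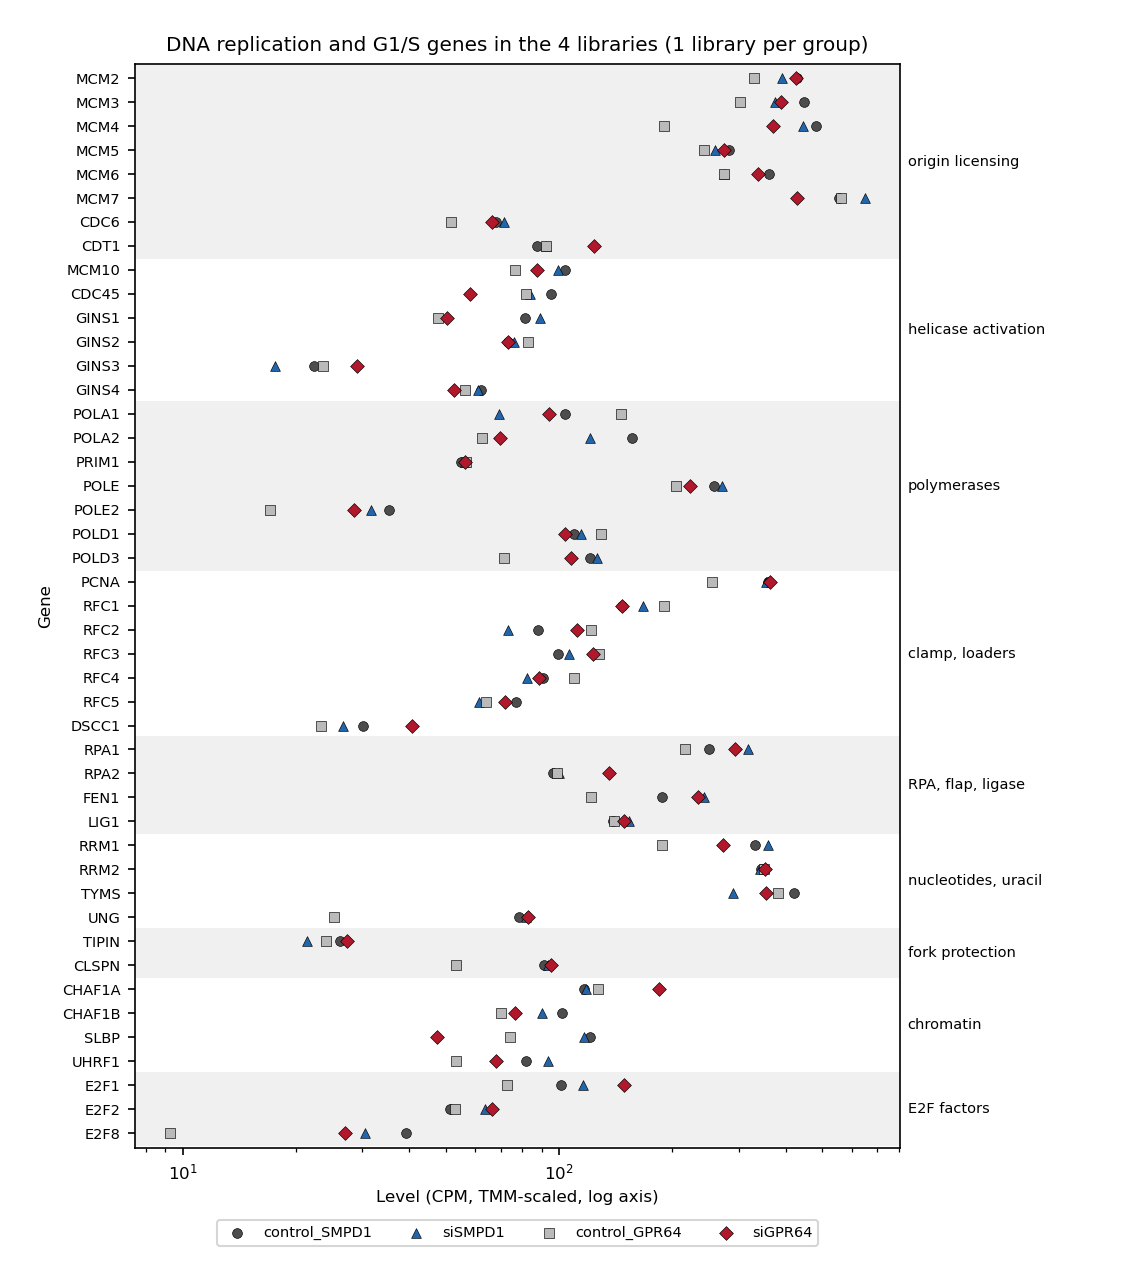
Levels of the 45 members in the 4 libraries, in CPM on a log10 axis, 1 point per library (n = 1 each), ordered by role. PRIM1 and RRM2 have the smallest spans of the 45, 1.03-fold between the highest and the lowest library, while UNG and E2F8 drop in control_GPR64 to 25.3 and 9.25 CPM.

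The choice by symbol did not use promoter sequence. Many genes of this kind are known to be transcribed by E2F factors, so a high share of E2F matches could be foreseen. The RefSeq promoter table (GRCh38.p14) held windows of 250 bases before to 50 bases after the start for 38 of the 45 members. They were searched on both strands for the E2F letters TTTCCCGC, TTTGGCGC, TTTCGCGC and TTTGCCGC, whose matches may overlap on opposite strands. Of the 38 members 23 (60.5%) had a match, against 3.99% of 27305 genes in the table, 6.61% of genes with at least 1 CPM in a library and 25.4% of 63 other replication and G1/S genes. The windows below run 5′ to 3′ on the gene's strand from 140 bases before to 10 bases after the start. They are those of members the results turn on, with E2F matches in capitals. E2F1 (chr20:33686376-33686525, minus strand), UNG (chr12:109098032-109098181, plus strand), CLSPN (chr1:35769969-35770118, minus strand), POLE2 (chr14:49688205-49688354, minus strand) and FEN1 (chr11:61792771-61792920, plus strand) are members higher in siGPR64. POLA1 (chrX:24693778-24693927, plus strand) and SLBP (chr4:1712310-1712459, minus strand) are the 2 lower ones.
E2F1: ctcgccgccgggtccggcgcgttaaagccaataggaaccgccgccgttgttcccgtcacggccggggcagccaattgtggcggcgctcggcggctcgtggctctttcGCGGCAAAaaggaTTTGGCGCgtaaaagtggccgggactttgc
UNG: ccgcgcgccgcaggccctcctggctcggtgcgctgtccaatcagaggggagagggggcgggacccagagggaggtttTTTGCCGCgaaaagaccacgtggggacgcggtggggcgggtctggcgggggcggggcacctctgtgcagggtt
CLSPN: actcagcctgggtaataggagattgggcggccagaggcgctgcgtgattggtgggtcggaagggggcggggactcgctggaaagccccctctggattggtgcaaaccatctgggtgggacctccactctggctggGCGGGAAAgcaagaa
POLE2: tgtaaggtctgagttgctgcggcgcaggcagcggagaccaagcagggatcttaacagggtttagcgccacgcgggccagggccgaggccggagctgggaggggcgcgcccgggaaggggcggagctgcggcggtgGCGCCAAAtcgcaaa
FEN1: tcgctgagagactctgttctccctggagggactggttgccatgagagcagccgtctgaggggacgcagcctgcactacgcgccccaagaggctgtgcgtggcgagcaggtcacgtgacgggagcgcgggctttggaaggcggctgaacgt
POLA1: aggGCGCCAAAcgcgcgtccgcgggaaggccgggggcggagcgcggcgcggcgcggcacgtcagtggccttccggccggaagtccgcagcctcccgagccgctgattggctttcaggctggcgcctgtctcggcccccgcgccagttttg
SLBP: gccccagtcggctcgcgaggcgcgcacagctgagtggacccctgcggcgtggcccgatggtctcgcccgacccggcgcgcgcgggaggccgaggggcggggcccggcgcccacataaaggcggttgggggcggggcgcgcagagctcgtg
E2F1 carries a match 33 bases and another 20 bases before its start, UNG one at 63 bases, CLSPN and POLE2 one each that begins 5 bases before the start and runs across it, and POLA1 one at 137 bases. FEN1 and SLBP have none in the window. A match is a description of the letters and not a site of binding.

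The members with and without a match overlapped widely in their ratios. In siGPR64 the 23 with a match had a median log2 ratio of 0.30 (range -0.63 to 1.70), with 4 higher and 1 lower (13.2% and 11.3% of all genes). The 15 without had a median of 0.0 (-0.64 to 0.94), with 1 higher and 1 lower. MCM4, POLD3, DSCC1 and E2F8, also higher in siGPR64, had no window and are in neither set. In siSMPD1 the medians were 0.05 and -0.01. Other promoter letters divided the gene sets differently. The CHR letters TTTGAA, known from promoters of G2 and mitosis genes, were found for 5.26% of members and for 77.8% of 27 G2/M genes, beside 18.2% of all genes. The CCAAT letters occurred for 60.5% of members, beside 39.7% of all genes and 43.3% of those with at least 1 CPM in a library. The GC box GGGCGG occurred for 78.9% of members, beside 48.3% and 77.1%, the latter a share close to that of the members.

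**Figure D2:**
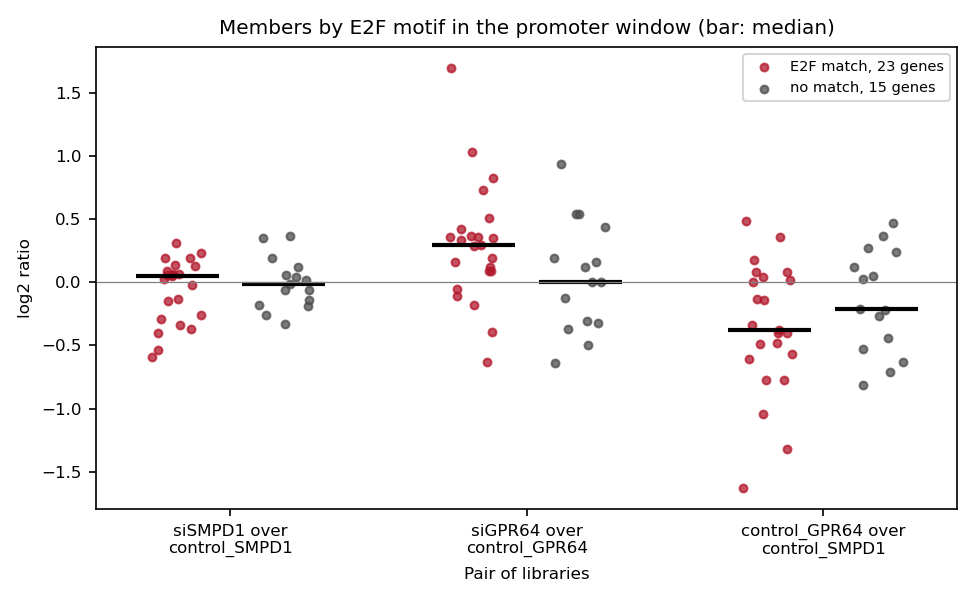
Log2 ratios of the 38 members with a promoter window in each paired comparison and between the controls, split by whether the window holds an E2F match (1 point per gene, bar at the median). The 2 sets overlap in each pair of libraries, and UNG, with a match, is the highest in the GPR64 pair at 1.70.

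Of the licensing genes, 7 of 8 had a GPR64-pair interval above equality, beside 22.2% of all genes. By the 1.5-fold rule 1 was higher, MCM4 (13.2% of all genes were). MCM4 is a subunit of the hexameric helicase whose ATPase unwinds the parental strands. It stood at 483.1 CPM in control_SMPD1 and 444.2 in siSMPD1, and at 190.5 in control_GPR64 and 369.8 in siGPR64. MCM4 was 1.94-fold higher in siGPR64 than in its control (1.75 to 2.16). The low library was control_GPR64, and siGPR64 remained 1.31-fold below control_SMPD1 (1.22 to 1.40).

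The other helicase subunits differed less between libraries. MCM2 stood at 427.7, 391.6, 329.2 and 425.8 CPM and MCM3 at 448.7, 374.5, 302.5 and 388.2 CPM in control_SMPD1, siSMPD1, control_GPR64 and siGPR64. Both were lowest in control_GPR64, and siGPR64 exceeded it 1.29-fold for MCM2 (1.18 to 1.41) and 1.28-fold for MCM3 (1.17 to 1.41). MCM5 lay at 282.9, 259.4, 243.2 and 275.0 CPM and MCM6 at 361.5, 274.3, 274.7 and 338.1 CPM in the same order. MCM6 was thus level in siSMPD1 and control_GPR64, and 1.32-fold below its control in siSMPD1 (1.27 to 1.37), short of the rule. MCM7 ran opposite to the other 5 subunits in both pairs. It stood at 553.4, 651.1, 562.5 and 429.0 CPM, 1.18-fold above its control in siSMPD1 (1.15 to 1.21) and 1.31-fold below it in siGPR64 (1.21 to 1.42). Exons of MCM7 overlap AP4M1 on the opposite strand by 224 bases in GENCODE, and AP4M1 stood between 16.4 and 23.1 CPM. The loading factors CDC6 (51.7 to 71.3 CPM) and CDT1 (87.7 to 124.2 CPM) had siGPR64 ratios of 1.29 (1.03 to 1.61) and 1.34 (1.14 to 1.59).

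Levels of different genes were compared per kilobase of the main GENCODE transcript. MCM7 had the highest value of the 6 subunits in every library (187, 220, 190 and 145 CPM per kb in control_SMPD1, siSMPD1, control_GPR64 and siGPR64). MCM5 was lowest or level with the lowest in 3 of the libraries (80.1, 73.4 and 77.8 CPM per kb). In control_GPR64 MCM4 was lowest instead, at 45.5 CPM per kb, beside 115, 106 and 88.4 in the other libraries. The subunits enter the hexamer in equal number, and their transcripts were not equal per length in any library.

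**Figure D3:**
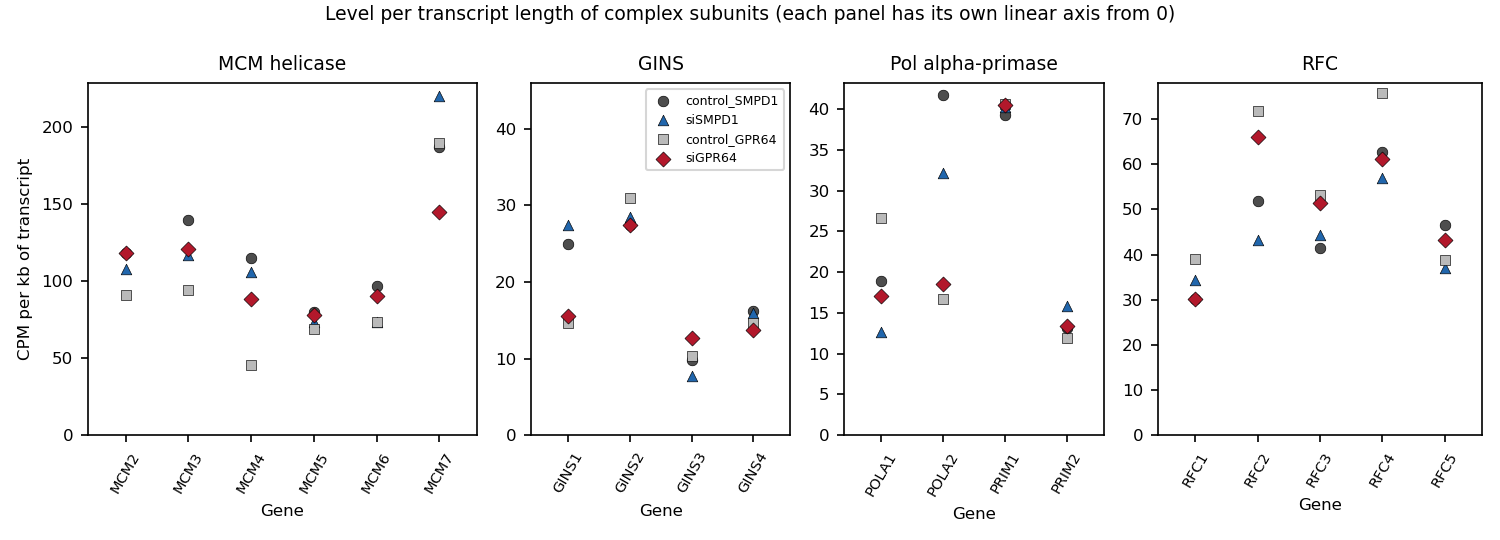
CPM per kilobase of transcript for subunits of 4 complexes in the 4 libraries (1 library each), each panel with its own linear axis from 0. MCM4 falls below MCM5 in control_GPR64 alone (45.5 against 68.8), and POLA2 lies above POLA1 in control_SMPD1 (41.7 against 18.9) and below it in control_GPR64 (16.7 against 26.6).

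No gene of the helicase activation group was higher or lower by the rule in either pair. CDC45, which completes the active helicase, stood at 95.3 CPM in control_SMPD1 and 83.7 in siSMPD1, and at 81.9 in control_GPR64 and 58.0 in siGPR64. It was 1.41-fold below its control in siGPR64 (1.15 to 1.75). GINS1, a subunit of the GINS tetramer, stood at 81.2, 89.1, 47.6 and 50.5 CPM in the same order. Both libraries of the GPR64 pair were low and both of the SMPD1 pair were high. GINS2 (73.3 to 82.9 CPM), GINS4 (52.5 to 62.0 CPM) and MCM10 (76.4 to 103.7 CPM) had GPR64-pair intervals that included equality, as did GINS3, the least abundant of the 4 GINS genes per kilobase (7.76 to 12.7 CPM per kb).

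Among the polymerase genes, subunits of the same enzyme differed in their pattern. POLA1, the catalytic subunit of polymerase alpha that extends the RNA primer, stood at 103.7 CPM in control_SMPD1 and 69.1 in siSMPD1, and at 145.9 in control_GPR64 and 94.0 in siGPR64. Each knockdown was below its own control, with siSMPD1 1.5-fold lower (1.4 to 1.61) and siGPR64 1.55-fold lower (1.32 to 1.83). Both knockdowns also lay below both controls, although siGPR64 and control_SMPD1 differed by no more than counting error (ratio 0.91, 0.79 to 1.04). POLA1 sat at the edge of the rule in the SMPD1 pair, where a log2 ratio of -0.59 became -0.55 when libraries were scaled by their totals alone. POLA2, the accessory subunit of polymerase alpha, stood at 156.0, 120.6, 62.3 and 69.7 CPM in the same order, low in both libraries of the GPR64 pair. PRIM1, the primase that makes the primer, was nearly constant at 54.8, 56.2, 56.5 and 56.4 CPM.

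POLE2, a subunit of the leading-strand polymerase epsilon, stood at 35.3 CPM in control_SMPD1 and 31.7 in siSMPD1, and at 17.1 in control_GPR64 and 28.6 in siGPR64. It was 1.66-fold higher in siGPR64 than in its control (1.15 to 2.44), an interval that rests on 50 reads in control_GPR64. POLE, the catalytic subunit, stayed between 204.5 and 270.5 CPM, with a GPR64-pair ratio of 1.09. POLD3, a subunit of the lagging-strand polymerase delta, stood at 121.0, 126.2, 71.6 and 107.7 CPM in the same order and was 1.5-fold higher in siGPR64 (1.25 to 1.81), on the edge of the rule. POLD1, its catalytic subunit, stood at 109.6, 114.1, 129.5 and 103.8 CPM and was 1.25-fold below its control (1.06 to 1.46). Between the controls, POLE2 and POLD3 were 2.06-fold and 1.69-fold lower in control_GPR64, where the log2 ratios of POLE and POLD1 were -0.34 and 0.24.

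The clamp and its loaders held 1 higher member in siGPR64, DSCC1, a subunit of the alternative loader that acts in sister chromatid cohesion. DSCC1 stood at 30.1 CPM in control_SMPD1 and 26.7 in siSMPD1, and at 23.3 in control_GPR64 and 40.7 in siGPR64. It was 1.74-fold above its control in siGPR64 (1.28 to 2.41), the highest of the 4 libraries. PCNA, the sliding clamp, stood at 359.8, 355.7, 255.5 and 364.3 CPM in the same order. PCNA was low in control_GPR64 and level in the other libraries, and the GPR64-pair ratio of 1.43 (1.29 to 1.57) fell short of the rule. RFC1 to RFC5 form the main loader, and they did not share the PCNA pattern. RFC1 stood at 146.7, 167.0, 190.1 and 146.9 CPM, highest in control_GPR64, and was 1.29-fold lower in siGPR64 (1.13 to 1.48) and 1.14-fold higher in siSMPD1 (1.08 to 1.2). RFC2 (73.2 to 121.6 CPM), RFC3 (99.7 to 127.8) and RFC4 (82.3 to 109.6) were also highest in control_GPR64, and RFC5 (61.4 to 77.0) in control_SMPD1.

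All 4 genes of single-strand binding, flap removal and ligation were above both controls in both knockdowns, by any size, as were 13.5% of 13664 genes. FEN1, the nuclease that removes the flaps of Okazaki fragments, stood at 187.8 CPM in control_SMPD1 and 242.8 in siSMPD1, and at 121.3 in control_GPR64 and 233.5 in siGPR64. The knockdown libraries lay close to each other and above both controls. The siSMPD1 library exceeded its control 1.29-fold for FEN1 (1.24 to 1.35), and the siGPR64 library exceeded its own 1.92-fold (1.69 to 2.2). Exons of FEN1 overlap FADS2 on the same strand by 49 bases in GENCODE. FADS2 stood at 2270, 3170, 1150 and 1320 CPM in control_SMPD1, siSMPD1, control_GPR64 and siGPR64. What this overlap adds to the FEN1 counts was not tested. RPA1, the large subunit of the single-strand binding protein, stood at 250.2, 317.8, 216.5 and 293.0 CPM in the same order, 1.27-fold (1.22 to 1.32) and 1.35-fold (1.22 to 1.51) above the paired controls. RPA2, the middle subunit, lay between 96.4 CPM in control_SMPD1 and 135.5 in siGPR64. LIG1, the ligase that joins the fragments, stood at 139.4, 153.7, 139.8 and 149.3 CPM. In these latter genes the lower knockdown and the higher control differed by no more than counting error.

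UNG had the largest ratio of the 45 members in the GPR64 pair. It encodes the glycosylase that removes uracil from newly made DNA. UNG stood at 78.5 CPM in control_SMPD1 and 81.7 in siSMPD1, and at 25.3 in control_GPR64 and 82.7 in siGPR64. It was 3.24-fold higher in siGPR64 than in its control (2.49 to 4.31), with 74 reads in control_GPR64. Beside this low library the other 3 were level, and siGPR64 and control_SMPD1 differed by a log2 ratio of 0.07. RRM1, the large subunit of ribonucleotide reductase, stood at 331.1, 358.9, 188.4 and 273.4 CPM in the same order, again lowest in control_GPR64. RRM2, the small subunit, did not follow it, at 343.8, 341.8, 350.8 and 351.8 CPM. TYMS, which makes thymidylate, stood at 421.2, 290.0, 382.6 and 355.3 CPM and was lowest in siSMPD1, 1.45-fold below its control (1.4 to 1.5), the member short of the rule that came nearest to it in the SMPD1 pair. TYMS overlaps ENOSF1 on the opposite strand over 719 exon bases in GENCODE. ENOSF1 stood at 29.9, 21.4, 39.4 and 15.3 CPM, and with the strand setting of the counting not given the reads of this overlap cannot be told apart.

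CLSPN, the adaptor that couples stalled forks to the checkpoint kinase CHEK1, stood at 91.3 CPM in control_SMPD1 and 93.6 in siSMPD1, and at 53.4 in control_GPR64 and 95.2 in siGPR64. It was 1.78-fold higher in siGPR64 than in its control (1.45 to 2.19), and control_GPR64 was low beside 3 level libraries. TIPIN, a fork protection protein that binds TIMELESS, stayed between 21.4 and 27.4 CPM. SLBP, which binds the stem-loop of histone mRNA and is made in S phase, stood at 121.1, 116.6, 74.0 and 47.4 CPM in the same order. It was 1.56-fold lower in siGPR64 than in its control (1.24 to 1.97) and 2.55-fold lower than in control_SMPD1 (2.13 to 3.09). SLBP was thus the member for which siGPR64 lay furthest from control_SMPD1. CHAF1A, the large subunit of the histone chaperone CAF-1, stood at 116.7, 118.1, 127.1 and 184.9 CPM, high in siGPR64 alone. Its ratio was 1.45 to the paired control (1.27 to 1.67) and 1.58 to control_SMPD1 (1.43 to 1.75). CHAF1B (70.2 to 101.8 CPM) was lowest in control_GPR64, as was UHRF1 (53.4 to 93.5 CPM), which brings the maintenance methyltransferase to new DNA.

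The 3 E2F genes of the set had GPR64-pair intervals above equality, beside 22.2% of all genes. E2F1, an activator of G1/S transcription, stood at 101.4 CPM in control_SMPD1 and 115.7 in siSMPD1, and at 72.6 in control_GPR64 and 148.9 in siGPR64. It was 2.05-fold higher in siGPR64 (1.73 to 2.44) and 1.14-fold above its control in siSMPD1 (1.07 to 1.21), and both knockdowns lay above both controls. E2F2, a further activator, stood at 51.4, 63.5, 52.8 and 66.6 CPM in the same order, again with both knockdowns highest, at 1.24-fold (1.14 to 1.35) and 1.26-fold (1.01 to 1.58). E2F8, a repressor that acts later in S phase, stood at 39.3, 30.5, 9.25 and 27.0 CPM. It was 2.89-fold higher in siGPR64 than in its control (1.85 to 4.74), and control_GPR64, with 27 reads, was 4.23-fold below control_SMPD1 (2.90 to 6.49). Unlike E2F1, E2F8 was highest in control_SMPD1 and siGPR64 remained 1.45-fold below that library (1.14 to 1.89).

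**Figure D4:**
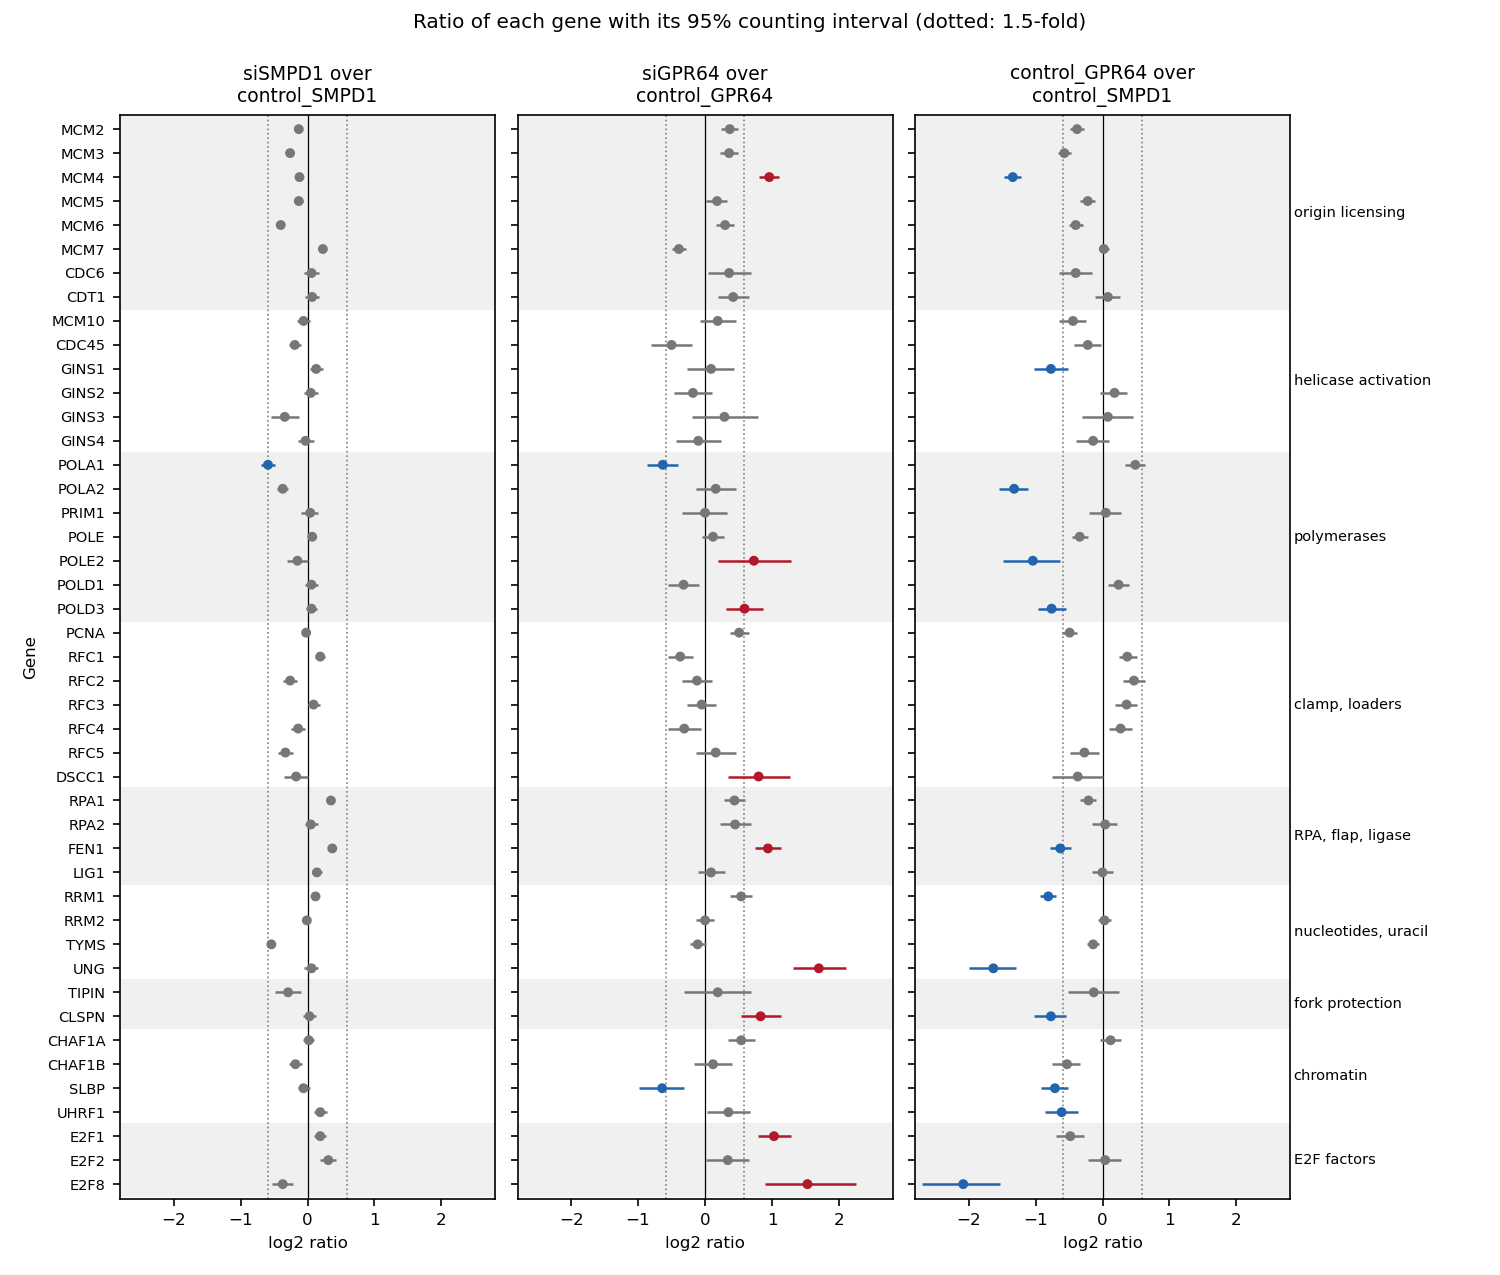
Log2 ratios of the 45 members in the SMPD1 pair, in the GPR64 pair and of control_GPR64 to control_SMPD1, ordered by role, with 95% counting intervals as bars and dotted lines at 1.5-fold (red, higher and blue, lower by the rule; grey bands mark the roles). In the SMPD1 pair 44 points are grey, while UNG and E2F8 reach 1.70 and 1.53 in the GPR64 pair and -1.63 and -2.08 between the controls.

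The 2 scrambled controls were compared with each other in the same way. In control_GPR64 12 members, or 26.7%, were lower than in control_SMPD1 (16.6% of 12798 genes were) and none was higher (14.6% of genes). The lower members were MCM4, GINS1, POLA2, POLE2, POLD3, FEN1, RRM1, UNG, CLSPN, SLBP, UHRF1 and E2F8. At 2-fold 5 were lower (8.33% of genes) and none higher (7.02%). The median log2 ratio of members between the controls was -0.27, beside -0.01 over all genes and -0.04 over 32 G2/M genes. Control_GPR64 was the lowest of the 4 libraries for 22 of 45 members, beside 32.6% of 13664 genes, and the highest for 8, beside 30.1% of genes. The cell cycle inhibitor CDKN1A stood at 30.7, 62.8, 129.1 and 43.9 CPM in control_SMPD1, siSMPD1, control_GPR64 and siGPR64, highest in control_GPR64. The high CDKN1A and the low SMPD1 level moved with control_GPR64, and low depth with both libraries of its pair. Their part in the members' levels was not tested.

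Set against the other control, the siGPR64 library held few differences among the members. Against control_SMPD1, 1 member was higher (12.4% of 12812 genes), CHAF1A, and 4 were lower (12.3%), CDC45, GINS1, POLA2 and SLBP, with a median log2 ratio of -0.04. At 2-fold none was higher (6.18% of genes) and 2 were lower (5.25%). For the 9 members higher in siGPR64 against its own control, the log2 ratio to control_SMPD1 ran from -0.54 (E2F8) to 0.55 (E2F1). In siSMPD1 against control_GPR64, 13 members were higher (18.7% of 12887 genes) and 2, POLA1 and RFC2, were lower (16.4%), with a median of 0.21. At 2-fold 4 were higher (10.5%) and 1 was lower (8.02%). These comparisons share libraries with the paired ones, so their values are set side by side and are not independent of them.

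**Figure D5:**
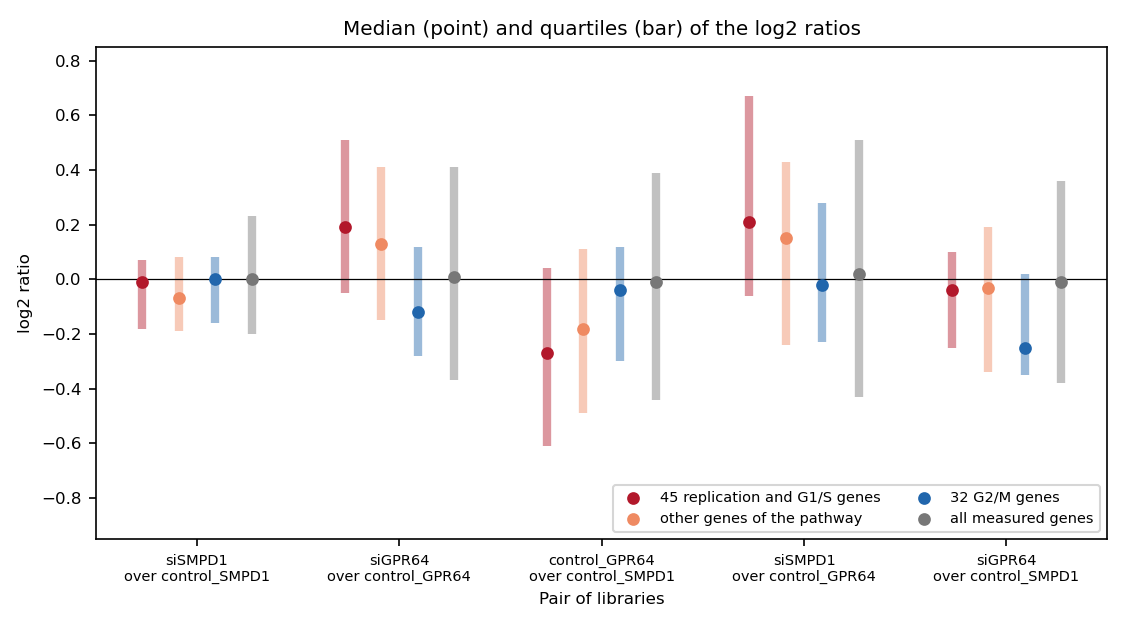
Median log2 ratio of the 45 members, 77 or 78 other replication and G1/S genes, 32 G2/M genes and all measured genes in the 5 comparisons of 2 libraries (points), with the quartiles as bars. The members' median lies above 0 where control_GPR64 is the denominator (0.19 and 0.21), at -0.27 where it is the numerator, and at -0.01 and -0.04 where it is not involved.

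A total of 8 members lay above both controls in both knockdown libraries, against 13.5% of 13664 genes, and 3 lay below both, against 13.3%. The 8 were RPA1, RPA2, FEN1, LIG1, UNG, CLSPN, E2F1 and E2F2, and the 3 were POLA1, RFC4 and TYMS. The 8 make up a share near that of all genes. For RPA1, FEN1, E2F1 and E2F2 the lower knockdown exceeded the higher control by more than counting error, with ratios of 1.17 (1.08 to 1.27), 1.24 (1.14 to 1.36), 1.14 (1.07 to 1.21) and 1.2 (1.02 to 1.43). With both controls taken as 1 group and each knockdown as a group of its own, which leaves 1 residual degree of freedom, edgeR's quasi-likelihood test called no member and no gene (0.0%) at an adjusted p under 0.05 for either knockdown. At an unadjusted p under 0.05 edgeR found 179 genes for siSMPD1 and 313 for siGPR64, none of them members. DESeq2 called 1 gene for siSMPD1 (0.00732% of 13664) and 0 for siGPR64, none a member, and 179 and 211 genes at an unadjusted p under 0.05. Without a filter on low counts edgeR called 30 genes for siSMPD1 (0.174% of 17237) and 12 for siGPR64 (0.0696%), again no member. The lowest member p-values by edgeR were 0.0723 for POLA1 in siSMPD1 and 0.054 for SLBP in siGPR64 with the filter, and 0.0478 and 0.0155 for the same genes without it. Adjusted over all genes with the filter, no edgeR p-value of a member was below 0.999 in siSMPD1 or 1 in siGPR64.

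A further 78 listed genes belong to the pathway and are not members. In the GPR64 pair 15 of 77 (19.5%) were higher, beside 13.2% of all genes, and 3 (3.9%) were lower, beside 11.3%, with a median log2 ratio of 0.13. Those whose interval bound lay furthest from equality are described here. CCNE2, a cyclin that activates CDK2 at the G1/S transition, stood at 15.9 CPM in control_SMPD1 and 18.8 in siSMPD1, and at 1.71 in control_GPR64 and 16.8 in siGPR64. Its 8.98-fold ratio in the GPR64 pair (3.90 to 31.8) rests on 5 reads in control_GPR64. CCNE1, the related cyclin, stood at 4.48, 3.13, 3.77 and 14.9 CPM in the same order, high in siGPR64 alone and 3.81-fold above its control (1.98 to 8.57). CDC25A, the phosphatase that activates CDK2, stood at 59.6, 49.0, 25.7 and 69.7 CPM and was 2.70-fold higher (2.06 to 3.6). ORC1, the subunit of the origin recognition complex whose level varies over the cycle, stood at 90.2, 82.4, 32.5 and 70.5 CPM and was 2.16-fold higher (1.68 to 2.81). RBL2, a pocket protein that restrains E2F genes, stood at 114.1, 82.4, 104.1 and 63.9 CPM and was 1.63-fold lower (1.34 to 1.98). RNASEH2A was 1.51-fold lower (1.26 to 1.81), and E2F6, an E2F repressor that does not bind pocket proteins, 1.72-fold lower (1.22 to 2.48).

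In the SMPD1 pair 3 of the 78 other pathway genes (3.85%) were higher, beside 7.26% of all genes, and 3 (3.85%) were lower, beside 4.78%, with a median log2 ratio of -0.07. Neither share exceeded that of all genes, and the 6 are given as single values. E2F7, the repressor related to E2F8, stood at 44.3 CPM in control_SMPD1 and 81.0 in siSMPD1, and at 21.6 in control_GPR64 and 46.2 in siGPR64, higher in both pairs, at 1.83-fold for siSMPD1 (1.68 to 1.99) and 2.13-fold for siGPR64 (1.56 to 2.96). In siSMPD1 E2F8 lay the other way, 1.29-fold below its control (1.16 to 1.44). WEE1, the kinase that holds CDKs inactive, was 1.59-fold higher in siSMPD1 (1.46 to 1.72), and POLE3, a histone-fold subunit of polymerase epsilon, 1.56-fold higher (1.48 to 1.65). MCMBP, which binds MCM subunits, was 1.67-fold lower (1.58 to 1.76), RBBP4, the small CAF-1 subunit shared with other chromatin complexes, 1.56-fold lower (1.48 to 1.64), and CDK6 1.54-fold lower (1.35 to 1.75).

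Families divided between the members and these genes differed unevenly. Of the origin recognition subunits, ORC1 and ORC6 (1.67-fold, 1.36 to 2.07) were higher in siGPR64, ORC4 was 1.37-fold below its control (1.12 to 1.69), and ORC2, ORC3 and ORC5 had intervals that included equality. POLD2 (205.2 to 225.2 CPM), POLE4 (16.6 to 21.2 CPM) and RPA3 (20.7 to 33.7 CPM) had GPR64-pair log2 ratios between -0.17 and 0.13. POLD4 stood at 20.2, 19.2, 8.56 and 8.23 CPM in control_SMPD1, siSMPD1, control_GPR64 and siGPR64, low in both libraries of the GPR64 pair as GINS1 and POLA2 were. E2F5 was 2.10-fold higher in siGPR64 (1.60 to 2.79), and E2F3 and E2F4 had ratios of 1.36 (1.12 to 1.65) and 1.29 (1.06 to 1.58).

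Genes of G2 and mitosis were used to see whether the whole cycle moved together. Of 32 such genes none was higher or lower in siSMPD1 (7.26% and 4.78% of all genes), with a median log2 ratio of 0.0. In siGPR64 none was higher (13.2% of all genes) and 3, or 9.38%, were lower (11.3% of all genes), HMMR, NDC80 and NUF2, with a median of -0.12 beside 0.19 for the replication genes. HMMR, a spindle protein, stood at 71.3, 78.9, 192.5 and 91.7 CPM in control_SMPD1, siSMPD1, control_GPR64 and siGPR64, highest in control_GPR64. Control_GPR64 was lowest for 22 of 45 replication genes, beside 32.6% of 13664 genes. Among the G2/M genes it was highest for HMMR and for NDC80 (174.7 CPM, against 85 to 96.6 in the other libraries). For others, such as MKI67, ANLN and CDCA3, control_GPR64 was the lowest library here too. The G2/M genes went both ways between the controls. By the rule, control_GPR64 was higher than control_SMPD1 for HMMR, NDC80 and CKS2 (14.6% of all genes were higher). It was lower for MKI67, ANLN and CDCA3 (16.6% of all genes were). The difference between the replication and the G2/M genes was not tested.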

How the data were processed

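The authors deposited 1 table of whole-number read counts by gene symbol per library, without normalization. Per the submitters' processing notes, bcl2fastq, TopHat2, SAMtools, HTSeq and the build hg19 were used. Versions, annotation, strand setting and counting mode were not given in the sources used here. HTSeq's 5 summary lines, 36.5% to 44.8% of each library's entries, were left out. Reads not uniquely aligned are among them, which lowers counts of genes with near-identical copies. Of the members 8 have named pseudogenes (PCNA, RFC3, RFC5, RPA2, FEN1, RRM2, TYMS and UNG), and exons of 10 overlap another listed gene in GENCODE v29. Their counts are uncertain to that extent.

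Counts were scaled by TMM (edgeR 4.0.16, R 4.3.3) over all 4 libraries. CPM is the count per 1e+06 of the scaled total. Log2 ratios used a prior count of 0.5, and intervals are 95% exact Clopper-Pearson intervals of the read share. They cover counting error only, and with no molecular identifiers, reads need not be independent molecules. A call needs a mean of at least 1 CPM over the 2 libraries, at least 1.5-fold and an interval that excludes equality. The edgeR and DESeq2 1.42.0 tests took both controls as 1 group (1 residual degree of freedom) and genes with at least 1 CPM in a library, with Benjamini-Hochberg adjustment over all of them. No source used here states whether the controls were handled together.

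The rule for the members names symbols alone, but it and the lists were chosen with earlier results of these data known. Every member could be named. Of the other pathway genes up to 4 per direction and pair were named by the interval bound furthest from 0, plus families divided between the lists. Of the G2/M genes, those past the rule in the GPR64 pair or between the controls were named. CDKN1A comes from a list of 7 CDK inhibitors, all of which are named under other observations. Promoter windows are from RefSeq (GRCh38.p14) and transcript lengths from GENCODE v29 (GRCh38), which are not the build of the counts. MCM4, MCM5, GINS4, POLD3, DSCC1, RPA2 and E2F8 had no window. Alternatives were DESeq2 size factors, gene count totals, no low-count filter, a minimum of 10 CPM, a 2-fold rule, a prior count of 2 and thinning to the shallowest library.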

Additional observations from a re-analysis of the deposited data

Results flagged for a closer look

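For 8 members the 2 pairs had opposite directions with both counting intervals excluding equality, which is what singled them out. The same count was not made over all genes, so it has no share to stand beside. Each pair is 1 knockdown and 1 control library, so the difference between the pairs was not tested. The GPR64-pair log2 ratio minus the SMPD1-pair log2 ratio was 0.50 for MCM2 (95% counting interval 0.37 to 0.63), 0.62 for MCM3 (0.48 to 0.76), 1.08 for MCM4 (0.92 to 1.23), 0.30 for MCM5 (0.14 to 0.46) and 0.70 for MCM6 (0.55 to 0.85). In these 5 helicase genes siGPR64 was above its control and siSMPD1 below its own. Set against control_SMPD1 instead, siGPR64 was not above it, with log2 ratios of -0.01, -0.21, -0.39, -0.04 and -0.1 for MCM2 to MCM6. The opposite directions thus depend on which control is used. The difference was -0.63 for MCM7 (-0.74 to -0.51) and -0.56 for RFC1 (-0.76 to -0.36), with the directions exchanged. E2F8 had the largest difference of the 8, 1.90 (1.23 to 2.56), with 27 reads in control_GPR64.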

How the results depend on the processing

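All 15 counts and medians for the 5 comparisons held under DESeq2 size factors, without a low-count filter and with a minimum of 10 CPM. A count held if it stayed within 1.5 times its value. A median held if it moved by less than the median half-width of the members' counting intervals. No ratio past the rule in either pair or between the controls changed direction under any alternative. Nor did a median further from 0 than that half-width. Smaller values were not checked for a change of direction. With a 2-fold rule, members lower in siSMPD1 fell from 1 to 0, those higher and lower in siGPR64 from 9 to 3 and from 2 to 0, those lower in control_GPR64 against control_SMPD1 from 12 to 5, those higher and lower in siSMPD1 against control_GPR64 from 13 to 4 and from 2 to 1, and those higher and lower in siGPR64 against control_SMPD1 from 1 to 0 and from 4 to 2. By gene count totals alone, members lower in siSMPD1 numbered 0 and those higher in siGPR64 against control_SMPD1 2. With a prior count of 2, members lower in siSMPD1 numbered 0. With all libraries thinned to 2534861 gene counts, members lower in siSMPD1 numbered 2, higher in control_GPR64 against control_SMPD1 1 and higher in siGPR64 against control_SMPD1 2. POLD3, at 1.5-fold, missed the rule in siGPR64 under DESeq2 size factors. Without a filter edgeR called 30 genes for siSMPD1 and 12 for siGPR64, none of them members. No paired analysis was possible because each group has 1 library and the groups share only 1 replicate number, and no library could be left out for the same reason.

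With 2534861 to 19614913 gene counts, 3 counts corresponded to between 0.156 and 1.18 CPM, so depth limits few members. In control_GPR64 E2F8 had 27 reads and POLE2 50, and their intervals are wide. Spread between cultures was not measured.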

Other observations

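Inhibitors of cyclin-dependent kinases were read beside the replication genes. CDKN1A, the p53 target p21, was 2.05-fold higher in siSMPD1 than in its control (1.86 to 2.27) and 2.94-fold lower in siGPR64 (2.38 to 3.67). CDKN1B, known as p27, stood at 97.4 CPM in control_SMPD1 and 104.7 in siSMPD1, and at 138.4 in control_GPR64 and 104.6 in siGPR64, also highest in control_GPR64. CDKN2C and CDKN2D went the other way in the GPR64 pair. CDKN2C stood at 76.6, 96.3, 64.1 and 82.3 CPM in the same order, 1.28-fold higher in siGPR64 (1.05 to 1.57). CDKN2D stood at 19.9, 13.5, 19.2 and 32.5 CPM, 1.69-fold higher in siGPR64 (1.19 to 2.42). CDKN1C lay between 2.65 and 6.66 CPM, with a GPR64-pair interval that included equality. CDKN2A and CDKN2B were listed at 0 in all 4 libraries.

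Across the 45 members the log2 ratios of the 2 pairs, which share no library, had a Pearson r of 0.15 and a Spearman rho of 0.14, given as a description across genes that are not independent. Over 12386 genes r was 0.14. A total of 23 members had the same sign in both pairs and 22 the opposite sign.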
